A study of Canis lupus familiaris with 17 samples.

Results

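Effector CD8 T cells without GZMK were examined in the blood of 7 healthy dogs and 10 dogs with osteosarcoma (OS), an aggressive bone tumor. A cell was a member when it had at least 1 UMI (unique molecular identifier, 1 counted mRNA molecule) each of CD3E and CD8A, none of CD4, MS4A1 or GZMK, and at least 1 UMI of 2 or more of GZMB, PRF1, KLRD1, KLRB1, TRPM3 and IL12RB2. Members numbered 2305 of 84345 cells kept after limits on the genes, UMIs and mitochondrial share of each cell, or 2.73%. They were 28.3% of the 8150 cells with CD8A and CD3E and without CD4 or MS4A1. The levels of these 11 genes chose the cells, so they are described without a test.

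The study asked how circulating leukocytes of dogs with OS differ from those of healthy dogs. Leukocytes were isolated on a Ficoll gradient, captured one by one, and sequenced from the 3' end of their mRNA. The healthy dogs were client-owned, middle-aged and of varied breed, and the OS dogs carried a primary tumor, had received no treatment and also included old dogs. The genotype of every dog was labelled Wt, and each library came from a separate dog.

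CD8 T cells recognize peptides on MHC class I. When activated, they become effector cells that kill with perforin and granzymes and secrete chemokines, and naive cells keep LEF1, CCR7 and IL7R instead. GZMK encodes granzyme K, a trypsin-like protease that in many species marks CD8 T cells closer to memory, while granzyme B is the classical inducer of apoptosis in the target.

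Each dog gave between 1239 and 7070 kept cells and between 18 and 557 members. Healthy dog 4 gave 557 members and OS dog 4 gave 306, while OS dog 5 gave only 18 and was left out of all gene tests. A member held a median of 4727 UMIs, against 4935.5 in GZMK+ counterparts (cells of the same rule with at least 1 GZMK UMI) and 6521 in CD8 T cells with none of the 6 effector genes. The members' median UMIs per cell ran from 3170 to 6876.5 across dogs. Libraries shared few barcodes, with 1124 of 91883 distinct barcodes found in more than 1 dog, and 1 of the 2304 distinct barcodes of members.

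GZMB, which encodes granzyme B, was found in 85.7% of members, and so was KLRB1, which encodes the lectin receptor CD161. KLRD1, the CD94 chain of NK-type receptors, was found in 83.1% and the interleukin-12 receptor chain IL12RB2 in 80.4%. The cation channel gene TRPM3 was found in 49.6% and PRF1, which encodes perforin, in 18.7%. Most members held 4 of the 6 genes (787 cells, 34.1%) or 5 (673 cells, 29.2%), fewer held 3 (496 cells) or 2 (200 cells), and 149 held all 6.

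The summed level of GZMB in the members, in CPM (counts scaled to the total UMIs of the summed members), had a lowest, median and highest value of 476, 1070 and 1419 in the healthy dogs and of 757, 1235 and 2494 in the 9 OS dogs with at least 25 members, while OS dog 5, with its 18 members, was at 1541. PRF1 ran through 16.5, 36.8 and 62.7 CPM in healthy dogs and through 20.2, 34.2 and 84.6 CPM in these OS dogs, with OS dog 5 at 25.3 CPM. TRPM3 ran through 174, 645 and 1328 CPM in healthy dogs and through 1.34, 371 and 1411 CPM in these OS dogs, with OS dog 5 at 770.5 CPM. The ranges of the groups overlapped for each of these 3 genes, and TRPM3 differed most among dogs. Among all 17 dogs, TRPM3 was found in between 0.654% of members (OS dog 4) and 84.7% (OS dog 9), while PRF1 stayed between 10.7 and 29.3%.

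**Figure D1:**
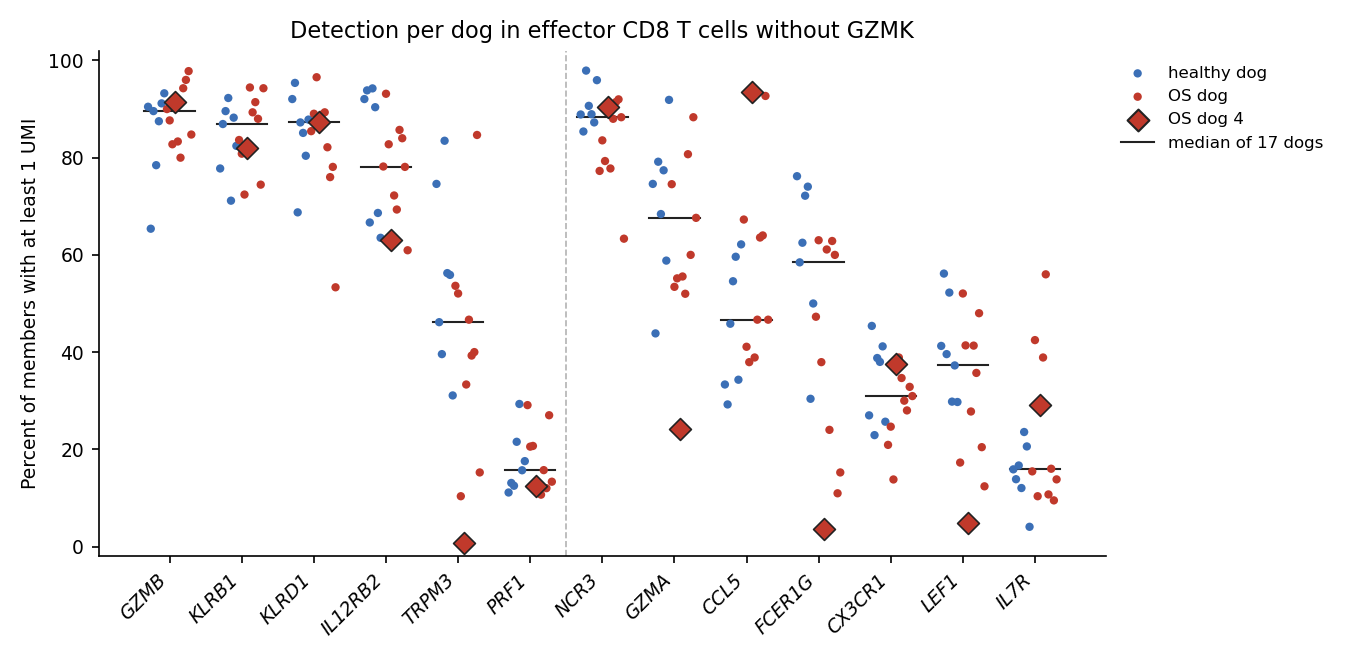
Percent of members with at least 1 UMI of each gene (vertical axis) in each of 17 dogs, with the 6 genes of the rule left of the dashed line and genes the rule did not use to the right; the black line is the median of the dogs. GZMB and NCR3 were found in most members of nearly every dog, and TRPM3 spanned 0.654% (OS dog 4, diamond) to 84.7%.

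Genes that the rule did not use showed how close these cells stood to the label. CCL5, a chemokine that draws T cells and monocytes, was found in 59.1% of members, 66.2% of GZMK+ counterparts and 4.41% of CD8 T cells with no effector gene. Such shares pool the cells of all dogs. By dog, the lowest, median and highest shares with CCL5 were 29.2, 46.7 and 93.5% in members. In counterparts they were 25.7, 54.2 and 97.2%. B cells, which should lack it, were taken as cells with MS4A1 and PAX5 and without CD3E or CD8A. In these, CCL5 was found in 1.89% at a median of 4575.5 UMIs. Leaving out B cells with CD3E or CD8A removed those that carried such T cell RNA, so this background can be too low. GZMA, a second tryptic granzyme, was found in 63.5% of members, 67.4% of GZMK+ counterparts and 0.186% of B cells. NCR3, the activating receptor NKp30, was found in 86.6% of members, 87.2% of GZMK+ counterparts and 0.589% of B cells. All 3 genes were far above the share in these B cells, and none was particular to the members beside the counterparts. They are on the study's list of CD8+ effector genes, which was made on these samples and is not independent evidence. Of the naive genes, CCR7 was found in 2.21% of members, LEF1 in 33.3% and IL7R in 18.5%, against 68.5, 93.9 and 90.4% of the CD8 T cells with no effector gene.

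Cells just inside the rule, with exactly 2 of the 6 genes, can be set beside the 226 cells just outside it with exactly 1. CCL5 was found in 54.5% of the cells inside and 19.0% of those outside, and NCR3 in 58.0 and 16.4%. IL7R was found in 36.5% of the cells inside and 81.9% of those outside, and LEF1 in 21.5 and 59.7%. The cells differed in depth, with a median of 4083 UMIs inside and 6915 outside, and of the 200 cells inside 47 came from OS dog 4 and 48 from OS dog 10. When cells were thinned to 2000 UMIs and the rule was applied again, which moved cells between the classes, CCL5 was found in 58.8% of 352 cells inside and 38.0% of 171 cells outside, and NCR3 in 63.4 and 42.7%. IL7R was then found in 18.5 and 40.4%, and LEF1 in 12.2 and 25.1%.

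Whether a GZMK UMI is found in a cell can depend on how deeply the cell is read. Members made up 36.8% of all effector CD8 T cells, meaning members and GZMK+ counterparts together (2305 and 3956 cells). When cells with at least 2000 UMIs were thinned to that number before the rule was applied, members made up 57.4% (1596 and 1185 cells). Thinning can only remove GZMK UMIs, so it cannot show how depth acted in the cells as read. As read, the median was 4727 UMIs in members and 4696, 4785 and 5247 in cells with 1, 2 and at least 3 GZMK UMIs. In single dogs the unthinned share ran from 15.3% (OS dog 9) to 62.2% (healthy dog 4). A cell with no GZMK UMI can lack the mRNA or hold some that was not sampled, so the comparisons with GZMK+ counterparts are between cells with less and with more of it.

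The first comparison asked whether these cells were more or less frequent in dogs with OS. Healthy dogs had members as 3.16% ± 2.54 (SD, n = 7) of their kept cells, and OS dogs had 2.44% ± 2.08 (SD, n = 10). The lowest, median and highest healthy dogs had 0.881, 2.09 and 7.88%, and the OS dogs 0.327, 2.19 and 7.45%. The groups overlapped almost completely, and the dog with the highest share had 24.1-fold that of the dog with the lowest. The difference of -0.726 percentage points had p = 0.669 in a two-sided exact Wilcoxon rank-sum test (adjusted p = 0.669 over 2 tests). Without healthy dog 4, the highest of all, the difference was 0.0604 in the other direction.

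As a share of CD8A+ CD3E+ cells, healthy dogs had 30.8% ± 9.56 (SD, n = 7) and OS dogs had 23.4% ± 14.6 (SD, n = 10). The lowest, median and highest values were 18.9, 28.1 and 47.7% in healthy dogs and 9.92, 15.8 and 52.0% in OS dogs. Of the 10 OS dogs, 7 lay below the healthy median, and the groups still overlapped, with OS dog 4 highest. The difference of -7.35 percentage points had p = 0.161 in the same exact test (adjusted p = 0.323 over 2 tests). The spread between dogs was thus larger than the difference between the groups for both shares, and p was 0.0549 by the same exact test without OS dog 4.

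**Figure D2:**
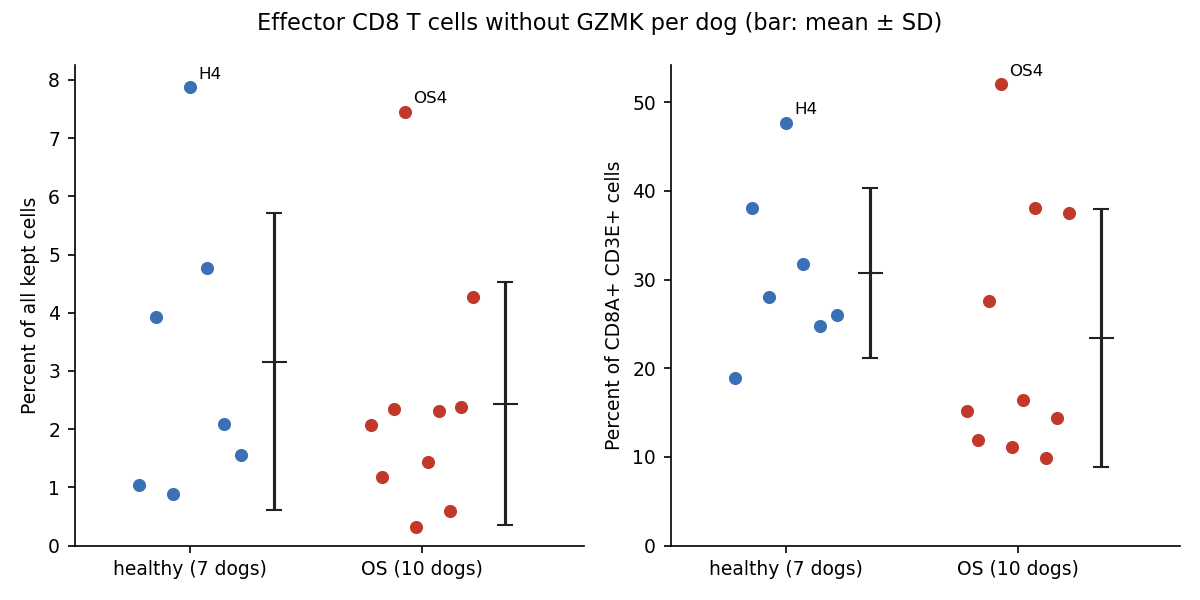
Members as percent of all kept cells (left) and of CD8A+ CD3E+ cells (right), 1 point per dog, with mean ± SD beside each group of 7 healthy or 10 OS dogs. Healthy dog 4 (H4, 7.88 and 47.7%) and OS dog 4 (OS4, 7.45 and 52.0%) are the highest of their groups in both panels.

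Against CD8 T cells with none of the 6 effector genes, the members had a broad cytotoxic and NK-type program and little of the naive one. The other class was chosen only by lacking these genes, so it can hold cells other than naive ones. GZMA, NCR3, FASLG, CX3CR1, CCL5 and ZEB2 were all far higher in the members, and CCR7, LEF1, IL7R, BACH2 and LTB were lower in each of 14 dogs. Of 11978 genes tested with a block for dog (6 healthy and 8 OS dogs), 1064 were called higher (8.88%) and 847 lower (7.07%), at an adjusted p under 0.01 and a log2 fold change over 0.58. The cells were chosen on 6 genes of this program, so genes expressed along with them can differ through the choice, and the values are mainly a description. The share of all genes tested whose ranges did not overlap between these classes was not counted, so lack of overlap in a named gene is description only.

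Of 13 killing genes outside the rule, 6 were called higher and 1 lower, with a median log2 difference of 0.38 beside 0.01 over all genes tested. GZMA had a lowest, median and highest level of 207, 707 and 1332 CPM in members, and 0, 0 and 3.25 CPM in the cells with no effector gene. FASLG, the death ligand that triggers Fas, ran through 88.8, 131 and 180 CPM in members and 0, 0 and 4.28 CPM in the other cells. Neither gene overlapped between the classes. PI3, the elastase inhibitor elafin, differed by a log2 of 7.40 ± 0.28 (SE), and RAB27A, which docks lytic granules at the membrane, by 1.06 ± 0.12. CST7 and SERPINB9, inhibitors of cathepsins and of granzyme B, were called higher too, and CTSC, the protease that activates granzymes, was called lower (log2 difference -0.94).

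Of 12 chemokines and cytokines, 6 were called higher and 2 lower (median log2 difference 1.17). CCL5 ran through 366, 2276 and 9092 CPM in members and 0, 9.66 and 887 CPM in the other cells, a log2 difference of 5.15 ± 0.39 (SE). The classes overlapped in range, and CCL5 was higher in the members of all 14 dogs. CCL4, another chemokine of cytotoxic cells, ran through 330, 480 and 826 CPM against 0, 7.72 and 76.0 CPM. LTB, the lymphotoxin beta chain that naive cells make, and IL2, the T cell growth factor, were the 2 called lower, at log2 differences of -2.02 ± 0.10 and -3.68.

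Of 16 NK-type receptors and adaptors, 13 were called higher and none lower. Their median log2 difference was 3.67, or 3.61 with the 2 genes that had no UMI in the other cells set at the value 3 counts would give. NCR3 ran through 417, 702 and 959 CPM in members and 0, 2.39 and 17.1 CPM in the other cells. SLAMF7, an activating receptor of cytotoxic cells, ran through 87.4, 143 and 199.8 CPM against 0, 0 and 14.4 CPM. Neither overlapped between the classes. FCER1G, the signaling adaptor of Fc and NK receptors, differed by a log2 of 4.75 ± 0.24 (SE), CD160 by 4.14 ± 0.25, KLRG1 by 3.69 ± 0.32 and CD96, a receptor for nectin-like ligands, by 2.89 ± 0.17.

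Of 19 transcription factors of effector and memory cells, 10 were called higher and 2 lower. ZEB2, a repressor that acts in terminal effector cells, ran through 762, 1388 and 1826 CPM in members and 3.61, 23.8 and 308 CPM in the other cells. TBX21 (T-bet), the regulator of type 1 responses, differed by a log2 of 5.37 ± 0.29 (SE) and its relative EOMES by 4.36 ± 0.34. ZBTB16 (PLZF), known from innate-like T cells, differed by 2.94 ± 0.27. ID3 and TOX were the 2 lower ones, by log2 differences of -2.99 and -0.59.

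Of 15 naive and central memory genes, 10 were called lower and 2 higher (median log2 difference -2.40). CCR7, which brings cells into lymph nodes, ran through 0, 5.95 and 30.7 CPM in members and 62.4, 236 and 339.7 CPM in the other cells. LEF1 ran through 18.7, 161 and 307 CPM in members and 393, 1555 and 3321 CPM in the other cells, and IL7R, the interleukin-7 receptor, through 17.1, 135 and 276 CPM against 527, 872 and 1438 CPM. None of these 3 genes overlapped between the classes. BACH2, a repressor that keeps T cells quiescent, differed by a log2 of -2.64 ± 0.11 (SE) and TCF7 by -2.40 ± 0.15. The 2 members called higher, ADGRG1 (3.14) and PTGDR (1.59), are genes that cytotoxic lymphocytes are also known to express.

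Homing receptors changed in both directions, with 6 of 18 called higher and 3 lower. CX3CR1, the fractalkine receptor of blood-resident effector cells, ran through 43.0, 88.9 and 105 CPM in members and 0, 0 and 9.06 CPM in the other cells. The integrins ITGAM and ITGAL differed by log2 values of 4.79 ± 0.19 and 2.15 ± 0.11 (SE). The mucosal receptors CCR6, CCR9 and ITGAE were the 3 called lower (log2 -2.34, -2.09 and -1.60). Cytokine receptors were called higher for 6 of 15 genes and lower for 3. IL18R1, a chain of the interleukin-18 receptor, differed by a log2 of 2.46 ± 0.23 (SE) and IL2RB (CD122), the shared chain for interleukins 2 and 15, by 2.84 ± 0.13. TGFBR2, a receptor for the inhibitory cytokine TGF-β, differed by -1.71 ± 0.10.

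Among 11 checkpoint genes, PDCD1 (PD-1) was called higher by a log2 of 2.68 ± 0.43 (SE), and CTLA4 and ICOS were called lower by log2 differences of -3.98 ± 0.24 and -0.96. The other 8 did not pass. All 5 genes of the list of CD8+ effector genes that the rule left unused (CCL5, CD96, GZMA, IL2RB and NCR3) were called higher, a list that the study chose on these samples and that is not independent evidence. The same holds for its list of CD8+ memory genes, with 6 of 7 called higher (median log2 difference 3.69), and its list of CD8+ naive genes, with 3 of 6 called higher (ADGRG1, IL2RB and PTGDR) and 2 lower (LEF1 and ITGA1). Of 10 markers of CD8+ gd T cells, 7 were called lower and none higher. Of 7 markers of double negative T cells, 6 were called lower and 1 higher (KIAA0825, log2 0.91). Among healthy dogs, the summed double negative markers had medians of 72.15 CPM in members and 341.83 CPM in the other cells. Among OS dogs the medians were 86.929 and 243.58 CPM, and the ranges overlapped. The part of double negative or gd T cells in the other class was not tested. A decrease here is thus not by itself a difference from naive cells. The members' 10 largest increases also held genes with no list here, such as the myosin MYO16 at a log2 of 6.11 ± 0.33 (SE), higher in the members of 12 of 14 dogs. ADGRL2, STYK1 and VEGFC were among these increases, taken at a mean of at least 20 CPM. CCDC3, PSEN2, CTPS1, STBD1, RALGPS2 and PTPRK were among the 10 largest decreases at the same limit. So were CCR7 and the double negative markers TMEM132D, KANK1 and CTLA4. The study lists CCDC3 as a marker of Th2-like CD4 T cells.

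**Figure D3:**
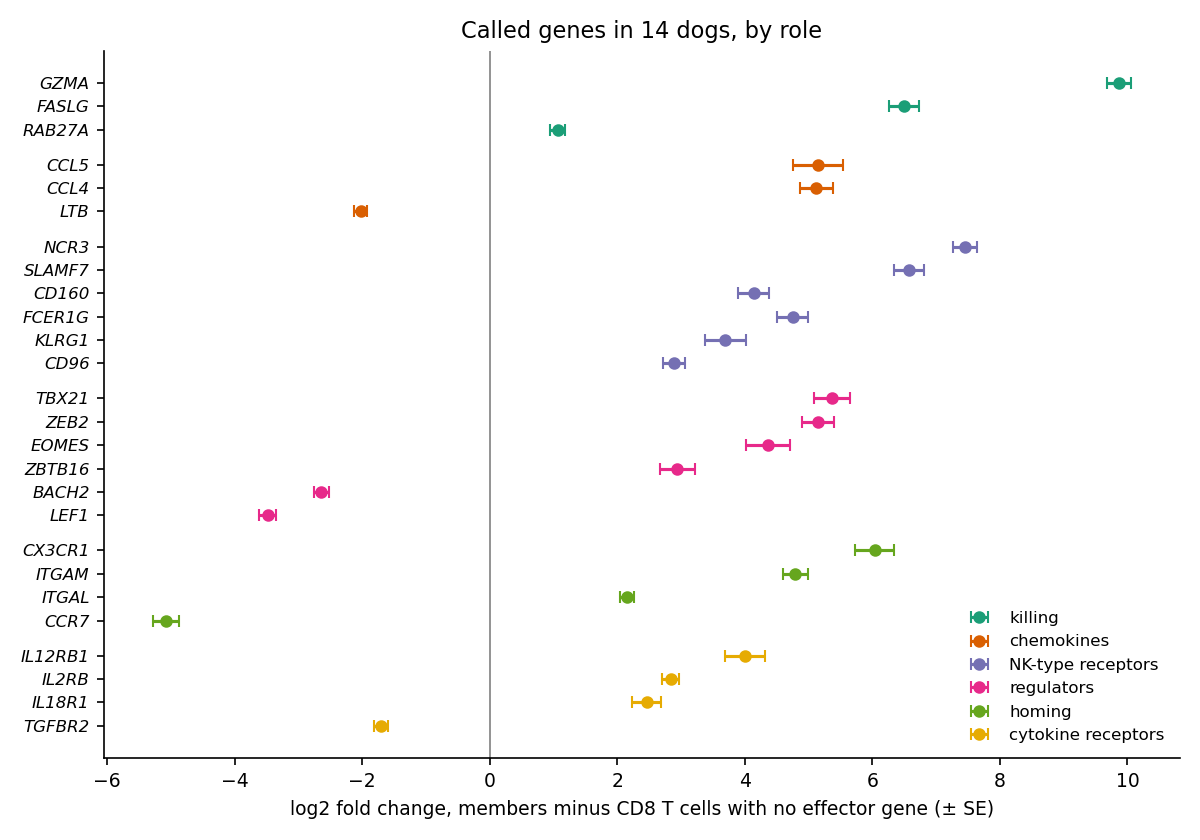
Log2 fold change with its SE (horizontal axis) between members and CD8 T cells with none of the 6 effector genes, for genes grouped by role in 14 dogs. Among the genes plotted, GZMA is at 9.87 and NCR3 at 7.45, and CCR7 at -5.08 and LEF1 at -3.48.

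Markers of other cells gave the following values in the members. Summed markers of NK cells were between 517 and 1392 CPM in members and between 11.8 and 54.8 CPM in CD8 T cells with no effector gene, where KLRF1, STMN2 and PAX4 had no UMI. KLRF1 was rare in members too, found in between 0% and 11.4% (OS dog 7) of them by dog, and in 1.04% of GZMK+ counterparts. In the members of 12 dogs, FREM1 and STMN2 had means of 40.3 and 16.9 CPM. Both were a small part of the summed level, so the sum does not show that the whole list was expressed. Of 6 NK markers tested, 5 were called higher in members and F2RL3 lower. Of 8 monocyte markers, 1 (LRMDA) was called higher, and of 7 neutrophil markers 2 (S100A8 and SERPINA1). The part of such cells or of their free RNA in these results was not tested.

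Members and GZMK+ counterparts were far more alike. Of 12563 genes tested in 16 dogs with a block for dog, 20 were called higher in the members (0.159%) and 12 lower (0.0955%), and 24 of these 32 have a gene symbol. CD28 and IL7R were lower in the members, and MYO16, ADIRF, ADGRL2, LDLRAD4, FGD4 and SVIL were higher. The cytotoxic genes that the rule did not use were close to equal, with log2 differences of -0.10 ± 0.08 (SE) for CCL5, 0.02 ± 0.04 for NCR3, 0.18 ± 0.06 for GZMA, 0.13 ± 0.05 for CD96 and 0.14 ± 0.04 for IL2RB, and none of these 5 passed the test.

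CD28, the costimulatory receptor that many terminal effector cells lose, ran through 1.28, 7.53 and 23.4 CPM in members and 3.09, 20.4 and 58.7 CPM in GZMK+ counterparts. It was lower in the members of 16 of 16 dogs, a log2 difference of -1.31 ± 0.16 (SE, adjusted p = 7.54e-08). CD28 was near the floor, with 120 UMIs in 88 of 2305 members (3.82%) and 460 UMIs in 288 of 3956 counterparts (7.28%). In OS dog 7 the difference rested on 1 UMI in 140 members and 2 UMIs in 121 counterparts. IL7R ran through 17.1, 140 and 276 CPM in members and 74.2, 251 and 415 CPM in counterparts. It was lower in 13 of 16 dogs, a log2 difference of -0.80 ± 0.09 (SE, adjusted p = 4.63e-09). The ranges across dogs overlapped for both genes, and the difference lay within dogs.

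Of the genes higher in the members, MYO16 ran through 0, 96.9 and 373 CPM against 3.09, 36.8 and 189.9 CPM in counterparts and was higher in 13 of 16 dogs, a log2 difference of 1.11 ± 0.13 (SE, adjusted p = 1.17e-08). LDLRAD4, an inhibitor of TGF-β signaling, ran through 22.8, 129.9 and 391 CPM against 10.9, 79.4 and 274 CPM. It was higher in 15 of 16 dogs, a log2 difference of 0.78 ± 0.09 (SE, adjusted p = 1.84e-08). FGD4, an exchange factor for the GTPase CDC42, ran through 19.98, 115 and 207 CPM against 12.06, 55.4 and 182 CPM and was higher in 14 of 16 dogs. The adhesion receptor gene ADGRL2 (log2 1.19), ADIRF (1.25), SVIL (0.80), which encodes supervillin, an actin-binding protein, S100P (0.98), FREM1 (0.69) and NFKBID (0.64) were called higher as well. PLXNC1, a semaphorin receptor (-0.65), SPTBN1 (-0.64), KIAA0825 (-0.66), MDM1 (-0.64) and GALNT17 (-0.63) were called lower.

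Cells with at least 2000 UMIs were thinned to that number, which regrouped the cells and left 13 dogs and 9819 genes. The calls for IL7R, MYO16 and LDLRAD4 held, with log2 differences of -0.63, 0.83 and 0.71. Those for CD28 (-0.47), FGD4 (0.44), ADIRF (0.36) and the 12 other genes of the 18 called genes that the naming rule and the lists held did not pass in that fit. Of these 18, DESeq2 called FGD4, IL7R, LDLRAD4, MYO16 and PLXNC1 and gave no adjusted p to the other 13. Leaving out 1 dog ended the call of PLXNC1 and SPTBN1 (healthy dog 4), GALNT17 (healthy dog 1 or 4), MDM1 (OS dog 7), FREM1 (3 dogs), NFKBID (5 dogs) and STMN2 (6 dogs). PLXNC1 was at -0.55, SPTBN1 at -0.53 and MDM1 at -0.56 without that dog, and GALNT17 at -0.53 without healthy dog 1, while FREM1 ranged from 0.54 to 0.76, NFKBID from 0.46 to 0.73 and STMN2 from 0.89 to 1.19.

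**Figure D4:**
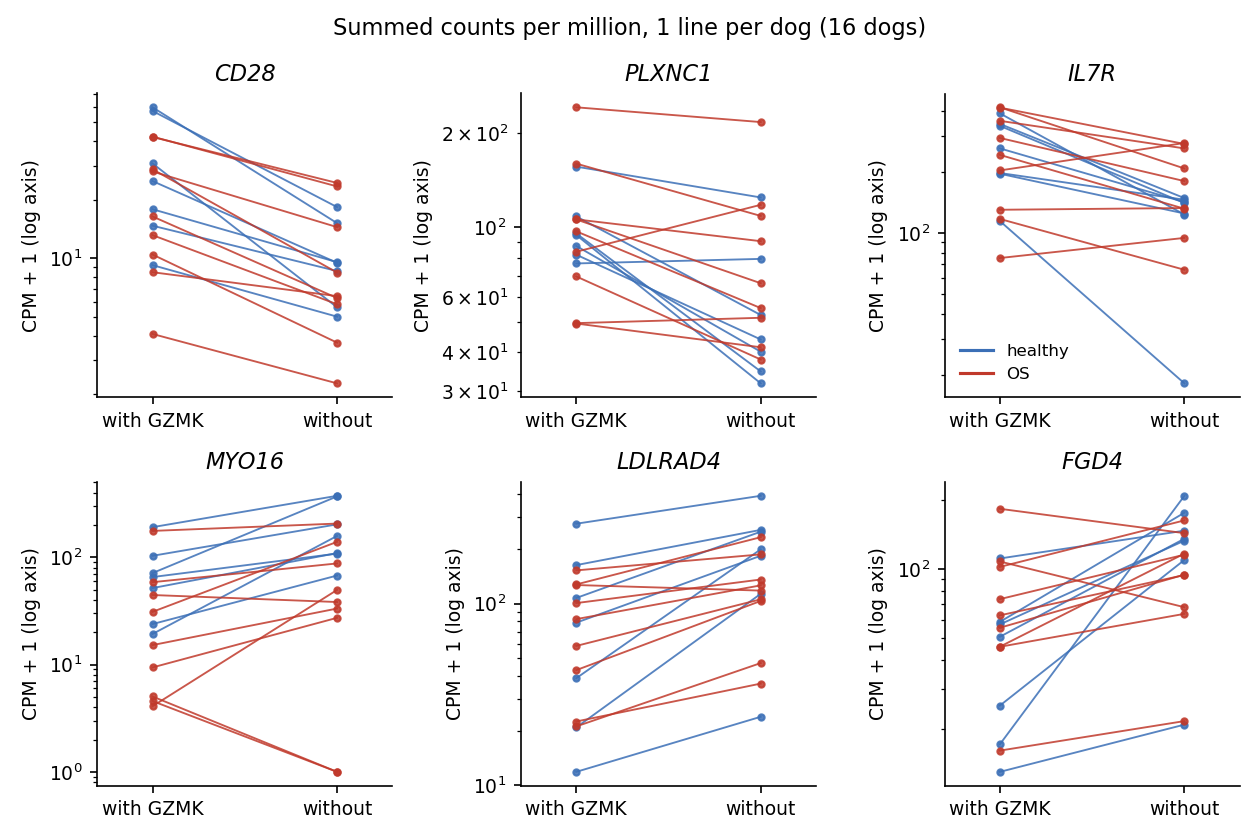
Summed CPM plus 1 on a log axis for 6 called genes in GZMK+ counterparts (left point) and members (right point), 1 line per dog in 7 healthy and 9 OS dogs. CD28 falls in all 16 dogs and IL7R in 13 of 16, while LDLRAD4 rises in 15 of 16.

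By list, the naive and central memory genes had 2 of 15 called lower (CD28 and IL7R) and none higher, with a median log2 difference of -0.06 beside -0.02 over all genes tested. None of the 17 NK-type receptors and adaptors, 13 killing genes, 12 chemokines and cytokines, 19 transcription factors, 15 cytokine receptors or 10 checkpoint genes was called, and their medians lay between -0.06 and 0.08. Several genes passed the adjusted p with differences under the fold limit and were not called. FCER1G had a log2 difference of 0.53 ± 0.09 (SE) and was higher in 14 of 16 dogs, ZEB2 had 0.36 ± 0.05, and the integrin ITGAM 0.35 ± 0.07. LTB had -0.53 ± 0.06, the activating receptor KLRK1 (NKG2D) -0.39 ± 0.05, and SH2D1A, the adaptor SAP, -0.37 ± 0.05, lower in all 16 dogs. FCER1G was found in 46.7% of members and 32.1% of counterparts, and after thinning to 2000 UMIs in 29.3 and 15.4%. The 7 MHC class II genes were all lower in the members (median -0.19) and none was called. The 11 cell cycle genes were all lower as well (median -0.66) and none was called, and their levels were low, with TOP2A at a mean of 1.58 CPM in members and 7.63 CPM in counterparts.

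Markers of other cells had these values in the same comparison. Of 7 NK markers, 2 were called higher in the members (FREM1 and STMN2), and their summed level was between 517 and 1392 CPM in members and between 400.4 and 1090 CPM in counterparts. Monocyte markers were higher for 8 of 8 genes (median 0.30) and neutrophil markers for 6 of 7 (median 0.38), with none called. CAMP (log2 2.79), PGLYRP1 (2.60) and LTF (1.73), contents of neutrophil granules, were called higher in the members but sat in few cells. CAMP was found in 20 of 2305 members, and 1 cell of OS dog 4 held 190 of the 545 CAMP UMIs. PGLYRP1 was found in 12 members, with 147 of its 305 UMIs in 1 cell of healthy dog 4. The part of neutrophil RNA in these 3 calls was not tested. S100P, also called higher, was found in 71 members (3.08%) and in 3.67% of counterparts, with up to 41 UMIs in 1 cell, and its log2 difference was 0.08 after thinning.

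The number of GZMK UMIs in a cell gave an ordered view of the same difference in 12 dogs with enough cells of each kind. Mean KLRK1 was 449 CPM with no GZMK UMI, 513 with 1, 576 with 2 and 604 with 3 or more. Mean IL7R was 144, 145, 222 and 398 CPM, and mean CD28 was 9.01, 7.12, 12.06 and 34.8 CPM. For these 3 genes, the members lay below the cells with 3 or more GZMK UMIs in 12 of 12 dogs. For CD28 and IL7R, most of the distance came between 2 and 3 or more UMIs.

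FCER1G went the other way, with 255, 231, 195 and 151 CPM, and so did ZEB2 with 1323, 1196, 1168 and 854 CPM. LDLRAD4 went through 128, 96.0, 72.5 and 56.3 CPM. The members lay above the cells with 3 or more GZMK UMIs in 12 of 12 dogs for all 3. CCL5 had no such order, with 2979, 3466, 3228 and 2741 CPM, and the members were higher in 5 of 12 dogs. Median depth was 4727 UMIs in the members, 4696 at 1 GZMK UMI, 4785 at 2 and 5247 at 3 or more, so it rose mainly at the last step. The part of depth in these steps was not tested. With only cells of 3 or more GZMK UMIs as counterparts, a choice made after seeing the data, 122 of 11897 genes were called in 15 dogs (85 higher and 37 lower).

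**Figure D5:**
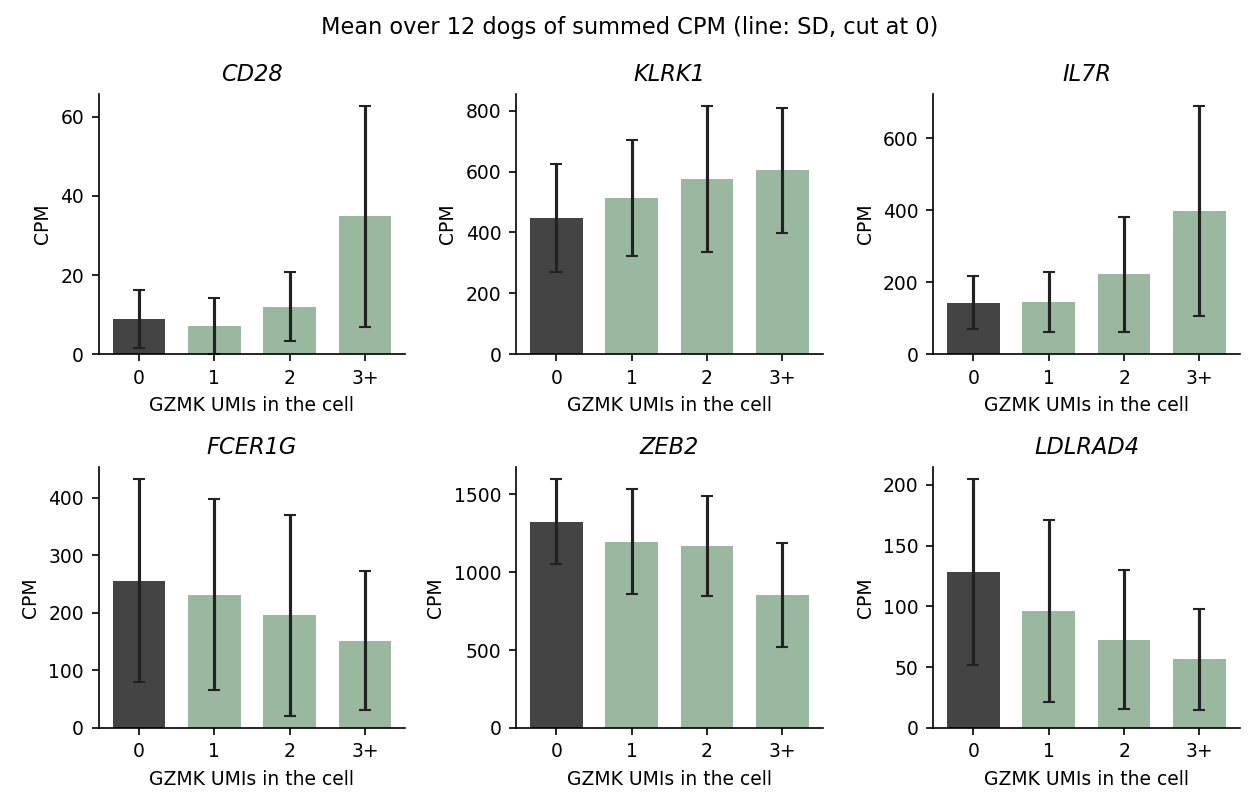
Mean CPM over 12 dogs (bars, with SD lines) for 6 genes in effector CD8 T cells with 0, 1, 2 or at least 3 GZMK UMIs, where 0 is the members. IL7R climbs from 144 to 398 CPM and FCER1G descends from 255 to 151 CPM.

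The last comparison asked whether the members' transcriptome differed between OS and healthy dogs. No gene was called among 11112 tested in 7 healthy and 9 OS dogs (0%) by edgeR's quasi-likelihood test, whose smallest adjusted p was 0.195, and DESeq2 called none either. At an unadjusted p under 0.05 there were 578 genes (5.2%), 358 higher in OS (3.22%) and 220 lower (1.98%). No gene had groups that did not overlap (0%). In simulated counts with 3-fold changes in 200 genes, the same test recovered 63.5% of them, and 100% of the 49 with a mean of 50 counts or more. It also called 8 unchanged genes. The 100% need not hold for genes that spread widely between dogs, such as CCL5 and FCER1G below.

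CCL5 ran through 366, 1916 and 2624 CPM in the healthy dogs' members and 746, 3058 and 9092 CPM in those of the OS dogs. The groups overlapped, with OS dog 4 highest, and the log2 difference of 1.10 ± 0.47 (SE) did not pass (p = 0.0282 and adjusted p = 0.832 by edgeR). FCER1G ran through 133, 375 and 586 CPM in healthy dogs and 36.1, 209 and 404 CPM in OS dogs, a log2 difference of -0.86 ± 0.37 (SE, edgeR adjusted p = 0.832). IL2RB ran through 461, 672 and 746 CPM in healthy dogs and 187, 426 and 731 CPM in OS dogs, a log2 difference of -0.59 ± 0.22 (SE, edgeR adjusted p = 0.763). GZMA, NCR3 and CD96 had log2 differences of -0.15, -0.25 and 0.09. None of these 6 genes passed, and the ranges of the groups overlapped for all of them.

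The genes with the smallest p at a mean of at least 20 CPM did not pass either. CXCL8, the neutrophil chemoattractant, ran through 0, 3.22 and 47.2 CPM in healthy dogs and 0, 49.9 and 326 CPM in OS dogs, a log2 difference of 3.26 ± 0.79 (SE, edgeR adjusted p = 0.353). It was found in 153 of 2305 members, 1 of which held 126 of its 568 UMIs. NFKBIA, the inhibitor of NF-κB, ran through 9.76, 15.2 and 19.98 CPM in healthy dogs and 0, 37.7 and 132 CPM in OS dogs, a log2 difference of 1.60. CD74, the MHC class II invariant chain, ran through 272, 357 and 423 CPM in healthy dogs and 344, 593 and 799.9 CPM in OS dogs, a log2 difference of 0.66. The groups overlapped for each of these genes, although the OS medians lay above the healthy ones.

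TNFSF8 (0.73), BLOC1S6 (0.93) and SELPLG (0.66), the ligand of P-selectin, were the other genes on the higher side, as log2 differences. On the lower side were LONRF1 (-0.71), OPTN (-0.48), the mineralocorticoid receptor NR3C2 (-1.59), RCAN1 (-0.59), UBXN7 (-0.63) and LIMCH1 (-1.60). Interferon-stimulated genes had a positive difference for 14 of 16 genes (median log2 0.57 beside 0.01 over all genes tested), and none was called, with IFI44L at 0.73 ± 0.23 (SE, edgeR adjusted p = 0.662). Cell cycle genes had a positive difference for 10 of 10 (median 0.53), and naive genes for 4 of 15 (median -0.18). The cell cycle genes were near the floor. MKI67 was found in at most 5.56% of the members of any dog (OS dog 5) and in 3.27% in OS dog 4. TOP2A was found in at most 1.59% (healthy dog 1). Killing genes (median 0.09), NK-type receptors (-0.15) and transcription factors (-0.02) lay near 0. Monocyte markers had a positive difference for 8 of 8 genes (median 1.55), neutrophil markers for 5 of 5 (1.64) and platelet markers for 5 of 5 (0.90), with none called. B cell markers had a negative difference for 4 of 4 genes (median -0.90) and plasma cell markers for 5 of 5 (-0.91), again with none called. The summed monocyte markers ran through 45.9, 362 and 2046 CPM in healthy dogs and 25.8, 1212 and 3450 CPM in OS dogs. In OS dog 6, the highest, LYZ alone was at 2730 CPM and was found in 14 of 75 members. LYZ was also found in 85.1% of B cells, so the sums are not a measure of monocytes alone. With the log2 of the summed markers as a covariate, an alternative chosen after seeing the data, the log2 differences were 3.63 for CXCL8, 1.28 for NFKBIA and 0.66 for CD74, and no gene was called.

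Whether the step from GZMK+ counterparts to members differed between OS and healthy dogs was tested with an interaction term, and no gene of 12563 was called (0%) by edgeR or by DESeq2, with 517 at an unadjusted p under 0.05 (4.12%, of which 249 were higher, 1.98%, and 268 lower, 2.13%). The smallest adjusted p was 0.0116, of a gene with no symbol. Among the genes of smallest p, none of which passed, FGD4 (log2 -0.86 ± 0.19, SE), SLC2A13 (-0.73 ± 0.16), INPP4B (0.51 ± 0.11) and CXCL8 (1.62 ± 0.36) each had an edgeR adjusted p of 0.0513. IL7R had an interaction of 0.58 ± 0.15 with an adjusted p of 0.131. All 5 unused genes of the effector list had a negative interaction (median -0.25). The 11 cell cycle genes all had a positive one (median 1.36 beside -0.007 over all genes tested), and none was called. Their levels were near the floor, so a few cells can set these values.

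Dogs differed widely in some genes of the members. Over the 1750 genes with a mean of 100 CPM or more, the median SD between dogs was 0.34 on the log2 scale. The SD was 3.17 for LYZ, 2.55 for MYO16, 2.40 for PI3, 1.69 for TXK and 1.23 for CCL5. It was taken on CPM plus 1, where a value of 0 widens the spread. LYZ was at 0 CPM in OS dog 8, which had only 25 members, and MYO16 in OS dogs 4 and 8. LYZ, which encodes lysozyme and is on the list of monocyte markers, had a UMI in 417 of 2305 members, and 1 cell of OS dog 7 held 644 of that dog's 841 LYZ UMIs. The part of monocyte RNA in the spread of LYZ was not tested. PI3 ran from 4.04 CPM (OS dog 10) to 1571 CPM (OS dog 7).

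OS dog 4 stood apart, a description made after its values were seen. It was the lowest of the dogs for 15 of the 40 most variable genes and the highest for 3, and its own values took part in ranking these genes. In its members TRPM3 was at 1.34 CPM (the other 16 dogs had a lowest, median and highest of 104, 487 and 1411 CPM), and TXK, a Tec-family kinase of T cells, was at 4.68 CPM (211, 486 and 845 CPM in the others). LEF1 was at 18.7 CPM (57.9, 182 and 417 CPM) and FCER1G at 36.1 CPM (54.0, 249.7 and 586 CPM). CCL5 was at 9092 CPM, above the other dogs (366, 2025 and 7410 CPM), and so was the MHC class I gene DLA88 at 6806 CPM (377, 1673 and 5204 CPM). CD8A was not unusual, at 336 CPM (230, 322 and 475 CPM). The same dog's GZMK+ counterparts had 31.2 CPM of TRPM3, 34.8 CPM of TXK, 14.3 CPM of FCER1G and 7379 CPM of CCL5, and its CD8 T cells with no effector gene had the lowest TXK of the dogs compared (62.4 CPM). Its members held few effector genes at once, with 6.54% having 5 or 6 of them, beside 8.10% in OS dog 10, while the remaining dogs ranged from 20.7 to 58.0%. TRPM3, which is among the 6 genes counted, had a UMI in only 2 of the 306 members of OS dog 4. The count thus partly restates TRPM3 and is not a separate trait. The rule chose cells on these 6 genes, so the count and the TRPM3 level are description only.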

How the data were processed

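Peripheral blood leukocytes of 17 dogs were captured with the 10x Genomics 3' kit. The authors deposited 1 matrix of raw UMI counts per gene and barcode for each dog, made per the labels with Cell Ranger 7.0.0 on CanFam3.1. The study aligned reads with and without introns, and the choice behind the deposited counts is not given in the sources used here. Total UMIs per dog ran from 7740230 to 56510134.

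Barcodes with 200 to 4500 genes, 500 to 20000 UMIs and under 10% mitochondrial counts were kept, without a removal of doublets (removal was an alternative, which took out 127 members). The members and all gene lists were chosen with earlier results of these data known. Counts were summed per dog (at least 25 cells, genes with at least 10 counts) normalized by TMM and tested by the quasi-likelihood method of edgeR, with Benjamini-Hochberg adjustment over all genes tested except the 11 of the rule. Comparisons within dogs had the dog as a block. CPM are summed counts over the total UMIs of the sum. A fitted log2 fold change against cells near 0 depends on the prior count. Sums held between 134102 and 3470850 UMIs, and shares have counting error besides the SD between dogs. A gene detected in droplet data can come from free RNA, and B cells without CD3E or CD8A gave that background.

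Named genes were CCL5, FCER1G, IL2RB and the unused genes of the study's effector list, the 10 largest called changes in each direction at a mean of at least 20 CPM (the 6 smallest p where none was called), and up to 4 genes per list. Genes named beyond this, the steps of GZMK and the values of OS dog 4 were chosen after their values were seen. Of the listed genes, 21 have no entry under their symbols and were not analysed here, and 1 gene that passed the test is not reported here. Alternatives were DESeq2, its size factors, 2 other filters, another threshold, doublets removed (Scrublet), thinning to 2000 UMIs, 3 effector genes, 10 cells, age or summed monocyte markers as a covariate, blocks, and each dog left out. On simulated data with 3-fold changes in 200 genes, the comparison with GZMK+ counterparts recovered 78.5%, that with CD8 T cells with no effector gene 67% and the interaction 54.5%. The Wilcoxon test of shares gave p under 0.05 in 3.4% of simulations without a difference and 43.4% at 1 SD between the groups.

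Software was R 4.3.3 (edgeR 4.0.16, limma 3.58.1, DESeq2 1.42.0) and Python 3.11.15 (scanpy 1.11.5, scipy 1.17.1, numpy 2.4.6, pandas 2.3.3, matplotlib 3.10.9).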

Additional observations from a re-analysis of the deposited data

Results flagged for a closer look

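In 3 of 40 groups of dogs tested for a single distant value, 1 dog lay apart from the others of its group in the summed CPM of a gene in the members. The limit is set so that about 1 group in 20 would pass by chance for normally distributed values. The genes that chose the members were left out, and for gene values the OS groups held the 9 dogs with at least 25 members. PI3 was at 1571 CPM in OS dog 7, with the next OS dog at 462 CPM. NFKBIA was at 132 CPM in OS dog 1, with the next at 55.8 CPM. Among the healthy dogs, IL7R was at 17.1 CPM in dog 7, with the next at 122 CPM.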

How the results depend on the processing

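Both shares kept their direction and stayed above the threshold in every alternative except one of the share of kept cells, which was 0.0604 percentage points without healthy dog 4 (-1.28 to 0.0604 with each dog left out, and -10.5 to -4.52 for the share of CD8A+ CD3E+ cells). The 32 genes called against GZMK+ counterparts were 9 with DESeq2 (which gave some genes no adjusted p), 20 with filterByExpr, 64 without a filter, 188 at an adjusted p under 0.05 with no fold limit, 13 after thinning to 2000 UMIs (in 13 dogs and 9819 genes, with cells regrouped), 122 against cells with at least 3 GZMK UMIs (chosen after seeing the data), 0 without the dog as a replicate block (421 at an unadjusted p under 0.05), and 26 to 50 with each dog left out, 50 of them without OS dog 9. KIAA0825 turned from -0.66 to 0.050 (log2) after thinning. The 1911 genes called against CD8 T cells with no effector gene were 3480 at the looser threshold, 989 after thinning in 9 dogs, and 1773 to 1910 with each dog left out. The interaction gave 8 genes without a filter, 10 with doublets removed and 1 at the looser threshold. Dog numbers are shared between groups but not animals: pairing them as a replicate block gave 3 genes between OS and healthy dogs, and differences of -0.718 (exact p = 0.453) and -6.14 (exact p = 0.297) for the shares, where correlations of same-numbered dogs were -0.126 to 0.17. All other counts of genes between OS and healthy dogs were 0. Depth limits genes of low mean counts and can affect which cells count as without GZMK.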
